A study of Mus musculus with 6 samples.

Results

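RAB proteins are small GTPases that sit on the membranes of the cell's compartments and direct the traffic between them. Each RAB switches between an active, GTP-bound form, which recruits effector proteins such as tethers and motors, and an inactive, GDP-bound form. Exchange factors turn the switch on and GTPase-activating proteins turn it off. In T cells this traffic returns internalised T-cell receptors and co-receptors to the surface, carries newly made proteins out through the Golgi apparatus and delivers secretory granules to the site of contact with another cell. In human T cells, RAB4A has been linked to the recycling of CD4 and of the zeta chain of the T-cell receptor complex.

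The RAB GTPase genes were found by their symbols in the platform annotation, as Rab followed by digits and at most a single letter. This gave 59 genes of 19938 with a symbol, each represented by 1 transcript cluster, which is the set of probes that the array summarizes for a transcript. Genes with several clusters were represented by the one with the highest mean over the 6 arrays. The symbol rule used no difference between strains, but the family was taken up with earlier results of these data, Rab4a included, already known. The 59 genes were divided by their textbook roles into recycling (8), early endosome (8), late endosome, lysosome and related organelles (12), endoplasmic reticulum (ER) and Golgi (14), secretion (13) and other roles (4).

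RNA came from CD4+TCRβ+ cells sorted from the lymph nodes of unimmunized females aged 8 weeks. The B6-ChrYSJL group held 3 pools of female offspring from C57BL/6J mice whose Y chromosome (ChrY) is that of SJL, and the B6 group held 3 pools of wild-type C57BL/6J females. Each pool combined 5 mice from litters of both sexes. Females of both groups carry no ChrY themselves and have a C57BL/6 background, so by design the groups differ in the ChrY of the sires. The comparison asks whether that leaves a mark on the resting transcriptome of daughters. The paper's genotyping of males detected no contamination by the donor strain. B6-ChrYSJL mice were bred as a line of their own, named C57BL/6JEi-ChrYSJL/J/EiJ in the paper's methods. Its males were backcrossed to C57BL/6J females before use. Any other difference between the lines, one of C57BL/6 substrain included, cannot be told apart from the sires' ChrY. Values are log2 signals after Robust Multichip Average (RMA) processing, with 1 array per pool, and differences are B6-ChrYSJL minus B6. The array number limits the precision.

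The T-cell identity of the pools was seen in their markers, and the 6 arrays were close to each other, with Pearson's r of 0.991 to 0.993 across transcript clusters. All 9 measured T-cell marker transcripts lay above the background level of 5.98, which is the level that 95% of 1210 transcripts for smell and pheromone receptors stayed under, as genes not used by T cells. Their mean log2 signal was 11.35 to 11.39 in B6-ChrYSJL pools and 11.39 to 11.40 in B6 pools. Markers of other cells were not all absent. The 13 B cell markers, of which Ms4a1, Ebf1, Blnk, Cr2 and Fcer2a averaged below background, had a mean log2 signal of 6.10 to 6.64 in B6-ChrYSJL pools and 6.14 to 6.24 in B6 pools, with H2-Ab1 differing most among them (log2 fold change 0.64). Of the 13, 3 were higher in B6-ChrYSJL at an unadjusted p under 0.05. Both CD8 markers were lower in B6-ChrYSJL at an unadjusted p under 0.05, with a mean log2 signal of 7.03 to 7.18 in B6-ChrYSJL pools and 7.42 to 7.62 in B6 pools. Of 9 stromal markers, 3 were higher at that p, led by Pdpn (0.20), and of 12 myeloid markers 1 was. Among all transcripts tested, 4.69% were higher and 5.92% lower at that p. None of the natural killer, platelet and mast cell or erythroid markers passed it. The marker differing most was Zap70 among T-cell markers (−0.11), Cd8a among CD8 markers (−0.54), Klra8 among natural killer markers (0.24), Lyz2 among myeloid markers (−0.24), Treml1 among platelet and mast cell markers (0.18) and Slc4a1 among erythroid markers (0.08). The part of these cells in the RAB differences was not tested, and in sorted bulk samples fewer cells of a type and less RNA per cell cannot be told apart.

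A single RAB transcript, Rab4a, stood apart in size, and the other 58 differed little between the strains. No RAB transcript passed a false discovery rate (FDR) of 0.05 over all 23410 transcripts tested with limma, where 4 transcripts passed in all (0.0171%). At an unadjusted p under 0.05 there were 12 RAB transcripts of 59 (20.3%), 7 higher and 5 lower in B6-ChrYSJL, beside 10.6% of all transcripts tested, 4.69% higher and 5.92% lower. The split moved with single pools: 4 were higher without B6-ChrYSJL replicate 1, and 2 were lower without B6-ChrYSJL replicate 3 and likewise without B6 replicate 3. All transcripts at that p numbered 2285, 1781 and 1935 without these pools, in that order, against 2484. Among the 43 RAB transcripts above background, 7 had an unadjusted p under 0.05 (16.3%), 3 higher and 4 lower. The share of all transcripts above background was 11.1%, 3.98% higher and 7.15% lower. A fit to the transcripts above background alone gave 12 of the 43, 7 higher and 5 lower, beside 1990 of all 14413. Pools of the strains did not overlap for 19 RAB transcripts (32.2%), beside 17.1% of all, and for 14 of the 43 above background (32.6%), beside 20.2% of all transcripts above background. The median log2 fold change of the RAB transcripts was 0.0032 and their median absolute log2 fold change 0.12, beside −0.0036 and 0.08 over all transcripts. After Rab4a, the largest absolute difference was 0.26. For 56 of the 59 the 95% confidence interval of the difference lay within 0.5 of 0 on the log2 scale, which is 1.41-fold, the exceptions being Rab4a, Rab39b and Rab42.

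**Figure D1:**
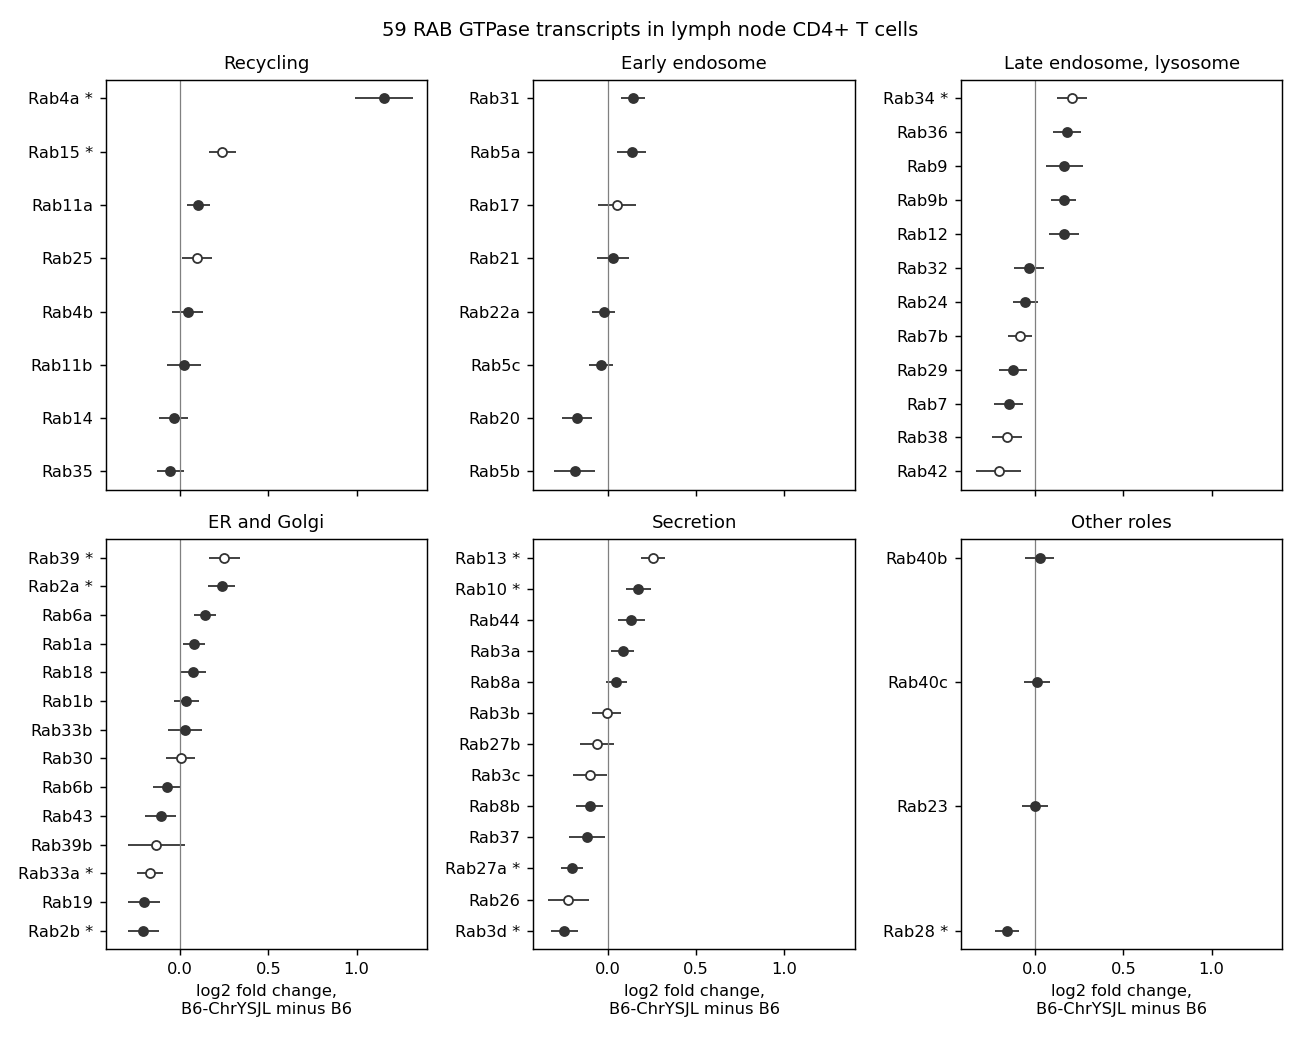
Log2 fold change (horizontal axis, B6-ChrYSJL minus B6) of the 59 RAB transcripts, one panel per role. Points are limma estimates and bars 1 standard error (n = 3 pools per strain), filled points average above the background level and open points below it, and a star marks an unadjusted p under 0.05. Rab4a lies at 1.16 and every other transcript within 0.26 of 0.

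Rab4a, which drives the fast return of receptors from early endosomes to the plasma membrane, was the transcript with the highest log2 fold change of all 23410. By absolute log2 fold change it ranked 5, behind transcripts lower in B6-ChrYSJL, and by limma p it ranked 18. Its log2 signals were 7.94, 8.19 and 7.60 in B6-ChrYSJL pools 1, 2 and 3, against 6.98, 6.50 and 6.78 in B6 pools 1, 2 and 3. Every B6-ChrYSJL pool lay above every B6 pool, with 0.62 between the nearest pools, and all 6 arrays were above the background level. The means were 7.91 ± 0.30 in B6-ChrYSJL and 6.76 ± 0.24 in B6 (SD, n = 3 pools each), a difference of 1.16 (standard error 0.16, 95% confidence interval 0.78 to 1.53) or 2.23-fold. The limma p was 8.56e-05 unadjusted and 0.102 after adjustment, so that Rab4a missed the FDR threshold of 0.05. It passed when the variances were fitted with an intensity trend and robust settings (adjusted p = 0.0159 from limma). Rab4a also varied more between pools of a strain than most members: its SD was the largest of the 59 among B6-ChrYSJL pools and second among B6 pools, where the median SD of the members was 0.09 in both strains.

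The near relative Rab4b, which shares the early and recycling endosome with Rab4a, was close in the 2 strains. Its log2 signals were 9.49, 9.51 and 9.50 in B6-ChrYSJL pools, against 9.27, 9.57 and 9.54 in B6 pools. The strains overlapped, with a difference of 0.04 and a 95% confidence interval of −0.16 to 0.24, which lies below that of Rab4a as a whole.

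Rab11a and Rab11b serve the slower recycling route through a compartment near the nucleus. Rab11a, the main RAB of that compartment, had 8.74, 8.85 and 8.84 in B6-ChrYSJL pools, against 8.71 in each B6 pool. The groups did not overlap, yet the difference was only 0.10 (standard error 0.06, unadjusted p = 0.146 from limma). Rab11b, its close paralogue, had 9.82, 10.11 and 9.75 in B6-ChrYSJL pools, against 9.87, 9.90 and 9.85 in B6 pools. The B6 pools lay inside the range of the B6-ChrYSJL pools, but the Rab11b result rested on the choice of transcript cluster: its second cluster was lower in B6-ChrYSJL without overlap, as given below for genes with 2 clusters. Rab14, which links early endosomes with the Golgi, had 10.04, 9.81 and 9.97 in B6-ChrYSJL pools, against 9.92, 10.08 and 9.93 in B6 pools, again with overlap. Rab35, which acts in fast recycling and at the contact site of T cells, differed by −0.06 (95% confidence interval −0.23 to 0.12). Rab15, a RAB of early and recycling endosomes, was higher at an unadjusted p of 0.0148, with 5.45, 5.23 and 5.34 in B6-ChrYSJL pools, against 5.15, 5.03 and 5.12 in B6 pools. Its groups did not overlap, but all 6 values were below the background level, so the size of that difference is uncertain. Rab25, known from epithelia, averaged below background in both strains. In all, 2 of the 8 recycling RABs passed an unadjusted p of 0.05, both higher, with Rab11b taken by its brighter cluster. Over all transcripts the share was 10.6%, 4.69% higher and 5.92% lower.

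**Figure D2:**
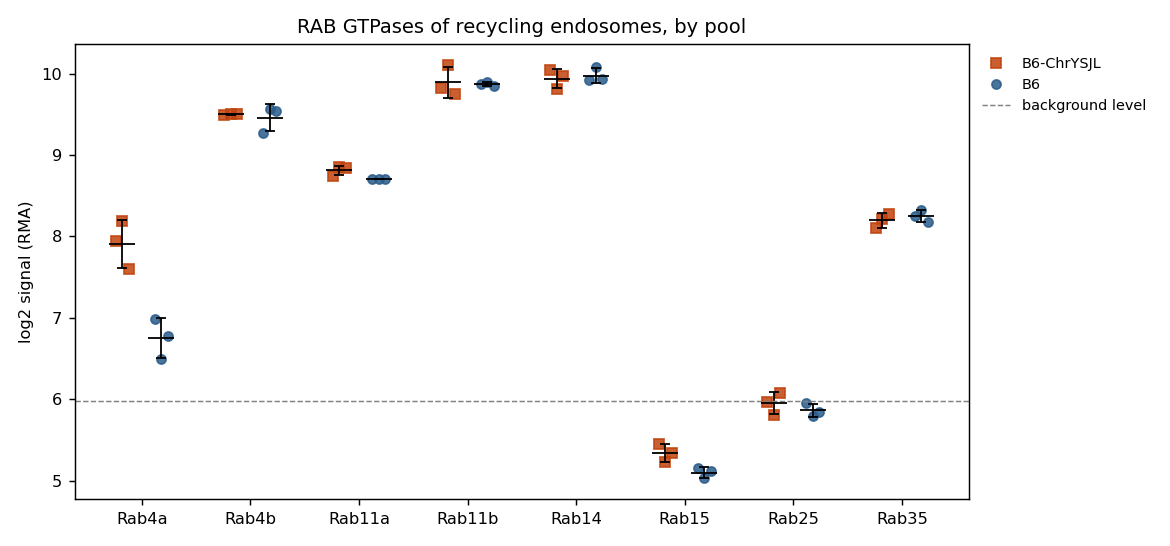
Log2 RMA signal (vertical axis) of the 8 recycling RAB transcripts in each pool, B6-ChrYSJL as squares and B6 as circles, with the group mean and SD (n = 3) as mark and bar and the background level of 5.98 as a dashed line. The Rab4a pools of B6-ChrYSJL sit between 7.60 and 8.19 and those of B6 between 6.50 and 6.98, while the pools of Rab4b, Rab11b, Rab14 and Rab35 overlap.

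None of the 8 early endosome RABs passed an unadjusted p of 0.05, which 10.6% of all transcripts did. Their median log2 fold change was 0.0035. Rab5a, Rab5b and Rab5c, which drive the fusion of early endosomes, had log2 fold changes of 0.14, −0.19 and −0.04. Rab5c, the brightest of the group, had 10.06, 10.11 and 9.96 in B6-ChrYSJL pools, against 10.06, 10.10 and 10.07 in B6 pools. Rab21, which carries integrins inward, had 9.63, 9.81 and 9.79 in B6-ChrYSJL pools, against 9.61, 9.87 and 9.66 in B6 pools. Both genes overlapped between strains. Rab20 (−0.17), Rab22a (−0.02) and Rab17 (0.05, below background) overlapped too. The single gene of this group without overlap was Rab31, which acts between the trans-Golgi network and endosomes (0.14, standard error 0.07, unadjusted p = 0.0655 from limma).

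Of the 12 RABs of late endosomes, lysosomes and related organelles, 1 passed an unadjusted p of 0.05 (8.33%), beside 10.6% of all transcripts. The member past it was Rab34, which positions lysosomes, with 5.82, 5.85 and 5.60 in B6-ChrYSJL pools, against 5.63, 5.49 and 5.54 in B6 pools. All of these values were below background, and B6-ChrYSJL pool 3 overlapped with the B6 pools. Rab7, the RAB of late endosomes and of their fusion with lysosomes, had 10.17, 10.05 and 10.07 in B6-ChrYSJL pools, against 10.19, 10.16 and 10.40 in B6 pools. Its difference was −0.15 (95% confidence interval −0.34 to 0.04), and B6-ChrYSJL pool 1 and B6 pool 2 overlapped. Rab24, linked to autophagy, had 8.88, 9.05 and 8.89 in B6-ChrYSJL pools, against 8.99, 9.01 and 8.99 in B6 pools, with overlap. Rab9, which returns mannose 6-phosphate receptors to the Golgi, and its paralogue Rab9b had log2 fold changes of 0.17 and 0.16 (unadjusted p = 0.146 and 0.0503 from limma). Rab32 and Rab38, which serve melanosomes and other lysosome-related organelles, were at −0.04 and −0.16, the second below background. The remaining members, Rab12 (0.16), Rab29 (−0.13), Rab36 (0.18), Rab42 (−0.21) and Rab7b (−0.09), did not pass, and of these only Rab36 was without overlap.

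The secretory RABs held differences in both directions, with 4 of 13 past an unadjusted p of 0.05 (30.8%), 2 higher and 2 lower. Over all transcripts 10.6% were past that p. Rab27a, which docks cytotoxic and other secretory granules at the plasma membrane, had 9.29, 9.26 and 9.21 in B6-ChrYSJL pools, against 9.50, 9.45 and 9.42 in B6 pools. Every B6-ChrYSJL pool was below every B6 pool, and the difference was −0.20 (standard error 0.06, unadjusted p = 0.0113, adjusted p = 0.365 from limma). Rab3d, a RAB of regulated exocytosis known from exocrine cells, had 6.98, 6.78 and 6.90 in B6-ChrYSJL pools, against 7.07, 7.14 and 7.19 in B6 pools. It was likewise lower without overlap, at −0.25 (standard error 0.08, unadjusted p = 0.0107, adjusted p = 0.362 from limma). Of their paralogues, Rab27b (−0.06), Rab3b (−0.01) and Rab3c (−0.10) averaged below background and overlapped between strains. Rab27b had 5.11, 5.28 and 5.25 in B6-ChrYSJL pools, against 5.13, 5.25 and 5.45 in B6 pools. Rab3b had 5.33, 5.17 and 5.15 in B6-ChrYSJL pools, against 5.33, 5.18 and 5.16 in B6 pools, and Rab3c had 4.95, 4.75 and 5.03 in B6-ChrYSJL pools, against 4.91, 5.14 and 4.98 in B6 pools. Rab3a, the RAB of synaptic vesicles, was at 0.08 with overlap and had 6.18, 6.20 and 6.23 in B6-ChrYSJL pools, against 6.08, 6.08 and 6.19 in B6 pools.

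The promoter windows of these lower secretory RABs are shown because both lay on the same side of 0 with no overlap between strains. They are the 300 bases around the gene's start, most of them before it, from RefSeq on GRCm38.p6, read 5′ to 3′ on the gene's strand. Rab3d lies on chr9:21918134-21918433 (minus strand) and Rab27a on chr9:73044560-73044859 (plus strand, the first of its 2 listed windows). Capitals mark matches on either strand to the GC box (GGGCGG), the E-box (CACGTG), the CCAAT box (CCAAT) or the TATA box (TATAAA).
Rab3d: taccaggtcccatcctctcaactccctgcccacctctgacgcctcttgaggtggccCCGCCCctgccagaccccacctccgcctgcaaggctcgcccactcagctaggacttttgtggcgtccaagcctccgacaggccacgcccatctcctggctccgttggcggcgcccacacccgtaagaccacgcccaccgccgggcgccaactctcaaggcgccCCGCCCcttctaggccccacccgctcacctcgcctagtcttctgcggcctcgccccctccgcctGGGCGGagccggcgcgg
Rab27a: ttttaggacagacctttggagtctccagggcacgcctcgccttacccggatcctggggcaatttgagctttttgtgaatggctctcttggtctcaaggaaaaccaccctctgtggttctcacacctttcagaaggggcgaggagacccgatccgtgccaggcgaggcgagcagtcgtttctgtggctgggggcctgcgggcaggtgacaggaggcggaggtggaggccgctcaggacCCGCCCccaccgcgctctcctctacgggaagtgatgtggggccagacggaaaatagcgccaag
The Rab3d window held 3 matches and the Rab27a window shown 1, all of them GC boxes. The other Rab27a window held no GC box but an E-box and a CCAAT box. Over 60 promoter windows of the 48 RAB genes found in that table, 68.3% held a GC box, 43.3% a CCAAT box, 10.0% an E-box and 6.67% a TATA box. Among all 32851 windows of the same length these shares were 35.7%, 37.4%, 7.15% and 13.6%. Windows of one gene can overlap, and a match is only a match of letters. Rab4a was not among the 48 genes, so its promoter could not be shown. Rab2b, Rab33a and Rab28, of other roles, were also lower without overlap, and their windows are not shown.

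Rab10 and Rab13 were the secretory RABs on the higher side. Rab10, which carries membrane proteins to the cell surface and is best known for the glucose transporter GLUT4 in fat cells, had 10.79, 10.90 and 10.79 in B6-ChrYSJL pools, against 10.60, 10.62 and 10.74 in B6 pools. The groups did not overlap, with a difference of 0.17 (standard error 0.07, unadjusted p = 0.0403, adjusted p = 0.457 from limma). Rab13, known from epithelial junctions, had 5.51, 5.43 and 5.42 in B6-ChrYSJL pools, against 5.11, 5.25 and 5.23 in B6 pools, a difference of 0.26 (unadjusted p = 0.00515, adjusted p = 0.323 from limma) that lay wholly below the background level. Rab8a, which moves vesicles from the Golgi to the surface, had 10.55, 10.53 and 10.53 in B6-ChrYSJL pools, against 10.48, 10.51 and 10.48 in B6 pools. The groups lay 0.02 apart, with a difference of 0.05 (95% confidence interval −0.09 to 0.19). Rab8b and Rab37, the second known from mast cell secretion, had log2 fold changes of −0.10 and −0.12. Rab26 (−0.22, without overlap, unadjusted p = 0.0881 from limma) averaged below background over the 6 arrays. Its mean was 5.86 in B6-ChrYSJL, below that level, and 6.08 in B6, above it. Rab44 was at 0.13.

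**Figure D3:**
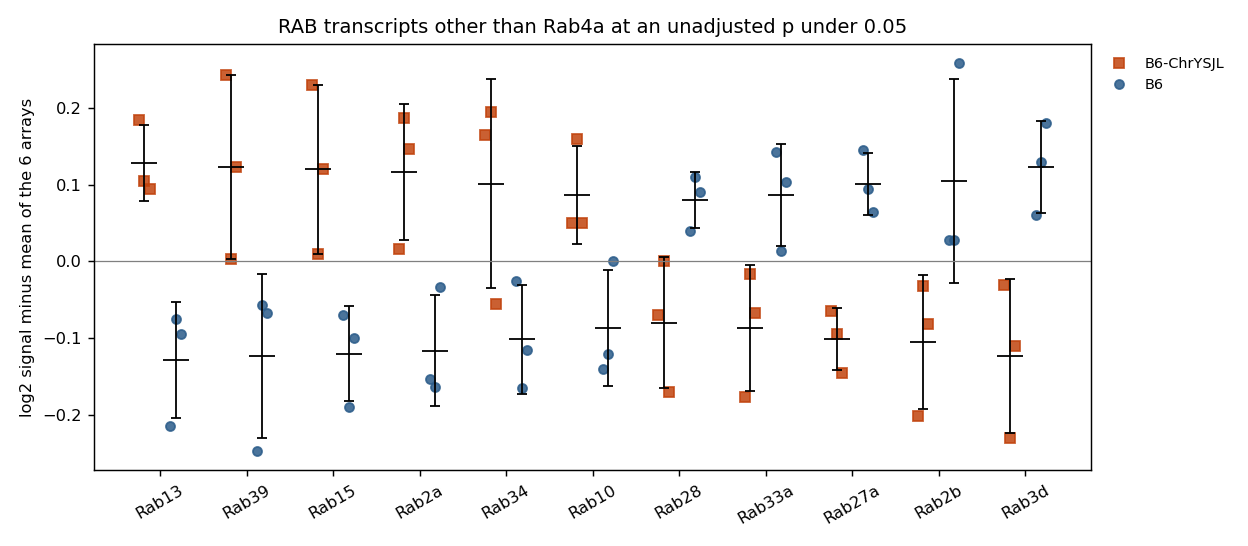
Log2 signal minus the mean of the 6 arrays (vertical axis) for the 11 RAB transcripts other than Rab4a at an unadjusted p under 0.05, B6-ChrYSJL pools as squares and B6 pools as circles, with group mean and SD (n = 3) as mark and bar. Differences between group means are 0.16 to 0.26 in size, and pools of the strains overlap only for Rab34.

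Of the 14 RABs of the ER and Golgi, 4 passed an unadjusted p of 0.05 (28.6%), 2 higher and 2 lower. The share over all transcripts was 10.6%. The paralogues Rab2a and Rab2b, which act between the Golgi and the ER, were on opposite sides. Rab2a had 10.64, 10.81 and 10.77 in B6-ChrYSJL pools, against 10.47, 10.46 and 10.59 in B6 pools, a difference of 0.24 (unadjusted p = 0.0134, adjusted p = 0.373 from limma). Rab2b had 7.11, 7.28 and 7.23 in B6-ChrYSJL pools, against 7.34, 7.34 and 7.57 in B6 pools, a difference of −0.21 (unadjusted p = 0.0416, adjusted p = 0.459 from limma). Neither overlapped between strains. The Rab2a result rested on the choice of transcript cluster, as described below for genes with 2 clusters. Rab39 (0.25, unadjusted p = 0.0199) and Rab33a (−0.17, unadjusted p = 0.0435) were the other members past that p. Rab39 had 5.22, 4.98 and 5.10 in B6-ChrYSJL pools, against 4.73, 4.92 and 4.91 in B6 pools. Rab33a had 4.51, 4.67 and 4.62 in B6-ChrYSJL pools, against 4.83, 4.70 and 4.79 in B6 pools. Neither overlapped, but all of these values lay below background. Their paralogues Rab39b (−0.14) and Rab33b, which links the Golgi with autophagy (0.03), overlapped between strains. Rab39b had 5.35, 5.47 and 5.90 in B6-ChrYSJL pools, against 5.89, 5.43 and 5.80 in B6 pools. Rab33b had 7.70, 7.99 and 8.06 in B6-ChrYSJL pools, against 7.86, 7.91 and 7.88 in B6 pools.

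Rab1a, which carries cargo from the ER to the Golgi, had 10.66, 10.75 and 10.75 in B6-ChrYSJL pools, against 10.64, 10.64 and 10.65 in B6 pools. The groups were apart by a margin of 0.01, with a difference of 0.08 (95% confidence interval −0.06 to 0.22). Its paralogue Rab1b was at 0.03. Rab6a, which serves retrograde traffic through the Golgi, was at 0.14 without overlap (unadjusted p = 0.0543 from limma), and Rab6b at −0.07 with overlap. Rab18, known from lipid droplets and the ER, was at 0.07. Rab19 (−0.21) and Rab43 (−0.11) overlapped between strains, as did Rab30, which averaged below background.

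Among the 4 RABs with other roles, Rab28, which is linked to cilia and photoreceptors, had 7.20, 7.27 and 7.10 in B6-ChrYSJL pools, against 7.31, 7.38 and 7.36 in B6 pools (−0.16, unadjusted p = 0.0495, adjusted p = 0.470 from limma). Rab40c, part of a ubiquitin ligase, had 8.69, 8.77 and 8.67 in B6-ChrYSJL pools, against 8.61, 8.67 and 8.82 in B6 pools. Rab40b (0.03) and Rab23, which restrains Hedgehog signalling, overlapped between strains as Rab40c did.

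For 3 of the genes the annotation gave 2 transcript clusters, and these gave different values. The brighter Rab2a cluster, used above, differed by 0.24, while the dimmer one had 9.18, 9.40 and 9.27 in B6-ChrYSJL pools, against 9.21, 9.30 and 9.22 in B6 pools, and differed by 0.04 (standard error 0.08, unadjusted p = 0.585 from limma). For Rab11b the brighter cluster differed by 0.02, while the dimmer one had 9.34, 9.33 and 9.31 in B6-ChrYSJL pools, against 9.49, 9.53 and 9.49 in B6 pools, and differed by −0.17 without overlap (standard error 0.06, unadjusted p = 0.0191, adjusted p = 0.399 from limma). The Rab5b clusters differed by −0.19 and −0.13, both with overlap. In each case the 10 named clusters nearest in number to the brighter cluster lay on another chromosome than the gene: 5 for Rab2a, which is on chromosome 4, 19 for Rab11b, which is on chromosome 17, and 2 for Rab5b, which is on chromosome 10. The clusters nearest to the dimmer one lay on the gene's own chromosome, all 10 for Rab2a and Rab11b and 8 of 10 for Rab5b. The values of these genes are uncertain: near-identical copies can share probes, and whether they do here was not tested.

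Among the genes for proteins that act on RABs, more were lower than higher in B6-ChrYSJL, 76 against 44 in any size. Over all transcripts the count was 11966 lower against 11444 higher. Above background it was 70 lower against 34 higher of these genes, beside 8013 against 6400 of all transcripts. Of 120 measured regulators and effectors, 20 passed an unadjusted p of 0.05 (16.7%), 3 higher and 17 lower in B6-ChrYSJL, beside 4.69% higher and 5.92% lower among all transcripts, and none passed an FDR of 0.05 in limma. The median log2 fold change of the 120 was −0.05, beside −0.0036 over all transcripts. Transcripts above background had more lower than higher calls as a whole: of the 104 regulators and effectors above background, 2 were higher and 16 lower at that p, beside 3.98% higher and 7.15% lower among all transcripts above background, and their median was −0.06, beside −0.02. The count over the 120 was 11 without B6-ChrYSJL replicate 3 and 13 without B6 replicate 2. The count over all 23410 transcripts fell too, from 2484 to 1781 and 2136 in these fits.

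Of the 8 measured genes of prenylation and RAB carriers, 1 was higher and 1 lower at an unadjusted p under 0.05. Among all transcripts tested, 4.69% were higher and 5.92% lower at that p. Gdi2, which extracts inactive RABs from membranes, had 10.44, 10.58 and 10.50 in B6-ChrYSJL pools, against 10.36, 10.32 and 10.27 in B6 pools, a difference of 0.19 without overlap (unadjusted p = 0.0224, adjusted p = 0.403 from limma). Praf2, a membrane protein of the family of prenylated RAB acceptors, differed by −0.22 (unadjusted p = 0.0151). Of 27 exchange factors 1 was lower at that p, Dennd5a, a partner of Rab6 and exchange factor of Rab39 (−0.21, unadjusted p = 0.0116), while Rin2, which acts on Rab5, did not pass it (−0.20, unadjusted p = 0.0683). Of 33 GTPase-activating proteins 5 were lower at that p and none higher, among them Rab3gap2, a subunit of the complex that acts on Rab3 (−0.23, unadjusted p = 0.0130), and Tbc1d17 (−0.17, unadjusted p = 0.0298).

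The largest differences among the 120 were those of the effectors Eea1 and Rilpl2, but effectors as lists did not differ most. The median absolute log2 fold change was 0.08 for effectors of early and recycling endosomes, 0.07 for those of late endosomes and 0.11 for those of Golgi and secretion. It was 0.18 for prenylation and carriers, 0.07 for exchange factors and 0.08 for GTPase-activating proteins. Eea1, the tether that Rab5 recruits to early endosomes, had 6.17, 6.25 and 6.20 in B6-ChrYSJL pools, against 6.65, 6.76 and 6.84 in B6 pools. It was lower without overlap, at −0.54 (standard error 0.07, unadjusted p = 5.68e-05, adjusted p = 0.0831 from limma). Rilpl2, which binds phosphorylated Rab8 and Rab10, had 7.76, 7.95 and 7.91 in B6-ChrYSJL pools, against 8.27, 8.32 and 8.43 in B6 pools. It was lower without overlap, at −0.47 (standard error 0.08, unadjusted p = 0.000271, adjusted p = 0.168 from limma). Vps39, a subunit of the tethering complex that Rab7 binds, was at −0.20 (unadjusted p = 0.0132), and Rab11fip4, a Rab11 effector, at −0.18 (unadjusted p = 0.0374). Eea1 and Rilpl2 passed an FDR of 0.05 with trended, robust variances, as Rab4a did, and Eea1 also with transcripts above background alone. The relatives Rilp, the dynein adaptor of Rab7, and Rilpl1 were both at 0.01.

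The partners of Rab4a named here differed by 0.17 or less in size. Rufy1, a Rab4 effector, differed by −0.17 (unadjusted p = 0.0480, adjusted p = 0.466 from limma) and was 7.87, 7.99 and 7.94 in B6-ChrYSJL pools, against 8.06, 8.05 and 8.20 in B6 pools. Rabep1 (rabaptin-5, −0.09), Rbsn (rabenosyn-5, −0.06), Gripap1 (−0.04) and Rab11fip1 (−0.01) overlapped between strains. Of the receptor chains whose recycling has been linked to RAB4A in human T cells, Cd4 was at −0.03 (95% confidence interval −0.18 to 0.11) and Cd247, the zeta chain, at −0.10 (standard error 0.07, unadjusted p = 0.164 from limma). Cd4 overlapped between strains and Cd247 did not. These are RNA levels, and the recycling of the proteins was not measured.

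On the secretory side, 7 of 20 effectors passed an unadjusted p of 0.05 (35.0%), 2 higher and 5 lower, beside 10.6% of all transcripts. Unc13d (Munc13-4), through which Rab27a primes granules for release, had 7.95, 7.85 and 7.78 in B6-ChrYSJL pools, against 8.12, 8.01 and 8.02 in B6 pools (−0.19, unadjusted p = 0.0286). Sytl2, another partner of Rab27a, was at −0.23 (unadjusted p = 0.0239), while Sytl1 and Sytl3 were at 0.05 and 0.07 and did not pass. The other listed effectors that bind Rab27 were on the higher side. Mlph (0.10), Sytl5 (0.08), Rph3al (0.07), Myrip (0.07) and Exph5 (0.03) did not pass an unadjusted p of 0.05, and Sytl4, given below, did. The partners of Rab27a thus lay on both sides of 0. Myo5a, the motor of granule transport, was at −0.26 (unadjusted p = 0.00760). Golga5 and Gcc2, golgins that bind RABs of the Golgi, were at −0.23 and −0.27. Rph3a, a Rab3 effector of neurons, was higher at 0.23 (unadjusted p = 0.00901), as was Sytl4 at 0.22, the second below background. The adjusted p of these 7 in limma was 0.348 or above.

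**Figure D4:**
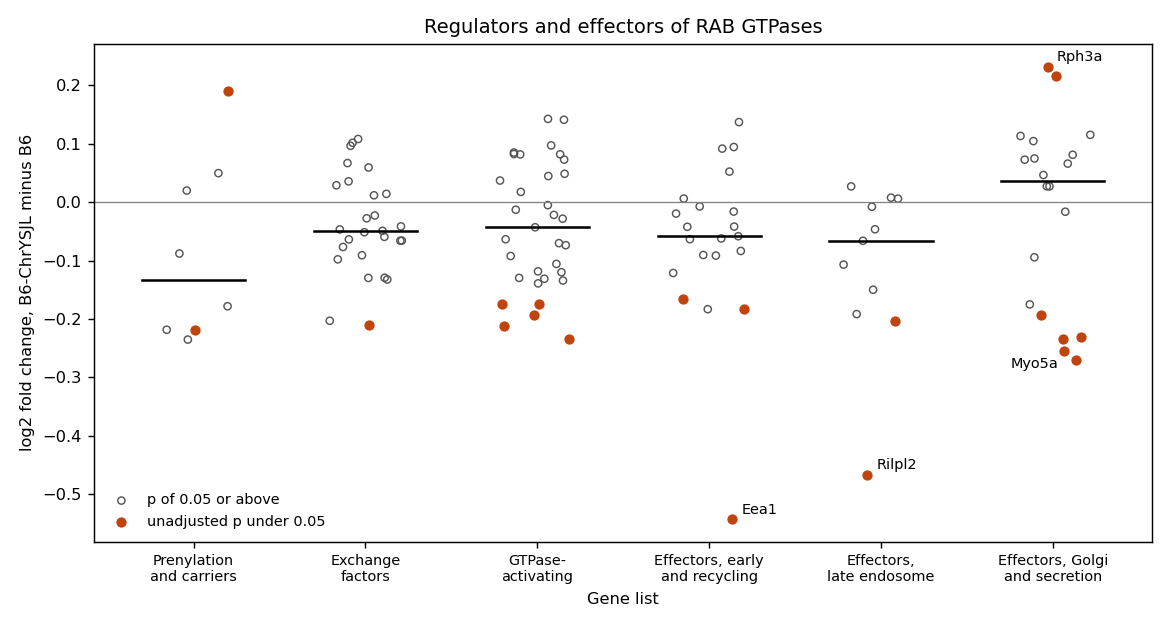
Log2 fold change (vertical axis, B6-ChrYSJL minus B6) of 120 regulators and effectors of RABs, in 6 lists. Each circle is 1 gene, filled where the unadjusted limma p is under 0.05, horizontal lines are list medians, and names mark a p under 0.01. Of the 20 filled circles 17 lie below 0, with Eea1 at −0.54 and Rilpl2 at −0.47 the lowest.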

How the data were processed

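Amplified RNA of sorted CD4+ cells was hybridised to Affymetrix Mouse Gene ST arrays. The values are the log2 signals deposited by the authors after RMA background correction, quantile normalization and summarization in Partek Genomic Suites. The submitters' processing notes name GCOS and the mm9 build. Differences were fitted on these values as deposited with limma 3.58.1 (lmFit and eBayes) in R 4.3.3, B6-ChrYSJL minus B6, with no covariate and with Benjamini-Hochberg adjustment over the 23410 transcript clusters that had a gene symbol. The other 12146 of 35556 clusters were not tested, except in 1 alternative. No low-signal filter was applied. The array files were not renormalized, so the effect of another summarization on the differences was not tested. Intervals are 95% confidence intervals from limma. With 3 pools per strain, p-values measure the spread between pools of 5 mice.

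The RAB genes, their roles, the regulator and effector lists and the marker lists were chosen with earlier results of these data known. By rule, every RAB member could be named, with values of every pool for Rab4a, for members at an unadjusted p under 0.05, for the paralogues of these with the same number and for the 2 brightest members of each role. Also named were regulators and effectors at an unadjusted p under 0.01, the 2 with the smallest p in each list and the most different marker of each list. Other regulators, effectors and markers were named after their values were seen, Cd4, Cd247, the Rab4 and Rab27a partners and the golgins among them. On simulated data for 23410 transcripts, the fit called 48% of 100 transcripts given a log2 change of 0.5, 93% of 100 given a log2 change of 1, and 12 given none. Planted changes loosen the Benjamini-Hochberg adjustment, so these shares need not hold for the data, where 4 transcripts passed. Alternatives covered the variance model, array weights, replicate block, centring, quantile normalization, cluster choice, a background filter, all clusters and each pool left out. Promoter windows came from RefSeq (GRCm38.p6). Python 3.11.15 drew the summaries.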

Additional observations from a re-analysis of the deposited data

How the results depend on the processing

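No RAB transcript passed an FDR of 0.05 in any of the 15 alternatives but one: with an intensity trend and robust variances in limma, 1 passed, Rab4a (1.16, adjusted p = 0.0159), as did 2 regulators or effectors and 47 transcripts in all, against 4. The count over all transcripts was 0 with unmoderated variances, 11 after median centring, 2 after quantile normalization, 13 among transcripts above background, where 1 regulator or effector passed, and 0 over all deposited clusters. Leaving out single pools gave 0 to 7. Rab4a stayed between 1.02 and 1.31 when single pools were left out, with an adjusted p of 0.103 to 0.332 from limma. The same replicate numbers did not pair the pools (r of their deviations −0.036 to −0.0001). With the replicate block Rab4a was at 1.16 (adjusted p = 0.191 from limma). In that fit 9 RAB transcripts and 13 regulators and effectors had an unadjusted p under 0.05, against 12 and 20. Over all transcripts 2213 did, against 2484. Without single pools the regulators and effectors at that p numbered 11 to 19 and the RAB transcripts 8 to 12, beside 1781 to 2517 of all transcripts. The median RAB log2 fold change was 0.0203 above background and −0.022 (without B6 replicate 1) to 0.012 (without B6 replicate 2) when single pools were left out, against 0.0032. For the 11 other RAB transcripts named at an unadjusted p under 0.05, 114 of 161 values under the alternatives kept that p and 47 did not, and none changed sign. The dimmer cluster of genes with 2 was an alternative chosen after seeing the data. Probes below background limit the size of a difference for 16 of the 59 genes.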

Other observations

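The genes next to Rab4a on chromosome 8 were looked at after its value was seen, with the gene order of RefSeq on GRCm38.p6. Of the 15 measured genes on each side, 6 of 30 had an unadjusted p under 0.05, 4 higher and 2 lower in B6-ChrYSJL, beside 10.6% of all transcripts, 4.69% higher and 5.92% lower, and the median of the 30 log2 fold changes was −0.02. The adjacent genes Rhou and Ccsap were both at 0.03. Tubb3, 7 places before Rab4a and a tubulin of neurons, averaged 6.19 in B6-ChrYSJL pools and 5.40 in B6 pools, a difference of 0.79 (adjusted p = 0.0218 from limma). Its B6 pools lay below the background level of 5.98, so the size of that difference is uncertain. Acta1, the actin of skeletal muscle and 3 places after Rab4a, was at 0.28 (unadjusted p = 0.0019), and Arv1 at −0.24 (unadjusted p = 0.00406).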
